A study of Mus musculus with 8 samples.

Results

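Blood vessels of skeletal muscle are represented here by 34 genes, 20 that mark endothelial cells and 14 that mark mural cells, out of 24341 genes listed for each library. The genes were taken by name from lists of known vessel markers, not by their values, and each was found. Earlier results of these data were known when they were chosen. Among the mural genes, 7 belong to the contractile apparatus of smooth muscle and 7 mark pericytes. RNA came from the tibialis anterior, a muscle at the front of the lower hind limb, of 8 mice of 12 weeks kept on chow and all described as male. The control group held 4 animals that carried floxed Carm1 and no Cre (HSAcre 0/0, Carm1 skm+/+). The knockout group held 4 animals in which floxed Carm1 was combined with the HSAcre transgene (HSAcre Tg/0, Carm1 skm-/-). Floxed Carm1 was thus shared by both groups, and presence of Cre and loss of Carm1 cannot be told apart. Carm1 encodes an arginine methyltransferase, and the human skeletal actin promoter that drives this Cre is known for activity in muscle fibres, so vessel cells are not the cells in which deletion was intended.

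Capillaries run along each muscle fibre as a tube of endothelial cells joined by junctions of cadherin, claudin and immunoglobulin-type proteins. Endothelial growth and survival depend on vascular endothelial growth factor (VEGF), which fibres secrete, and on the angiopoietin Angpt1, which mural cells secrete. Both act through receptor tyrosine kinases on the endothelium. Mural cells wrap this tube: pericytes lie on capillaries, and smooth muscle cells, rich in contractile proteins, surround arterioles and set their diameter.

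The values were FPKM, a read density per transcript length and library total, divided by 1 factor per library that lay between 0.904 and 1.07 (scaled FPKM). Summed FPKM lay between 604428 and 681042 per library. Read counts are not known from these tables, and the depth of the libraries, judged by the steps between low values, ranged from 81.0% to 100% of that of control 1. Carm1 checked the labels: it stood at 27.1, 37.4, 27.3 and 30.1 scaled FPKM in controls 1 to 4 and 18.0, 12.7, 17.2 and 13.8 in knockouts 1 to 4. Every knockout was below every control, with a log2 difference of -0.94 and an exact 2-sided permutation p of 0.0286, which is the minimum over 70 assignments. Xist, which female cells express, was present in control 1, knockout 2 and knockout 4 at 19.6 to 22.9 FPKM and at most 0.0662 in the other 5 libraries. The Y-linked gene Eif2s3y was at most 0.112 FPKM in those 3 libraries and 42.3 to 58.1 in the other 5, against the label male. Results are therefore also given within the 5 libraries without Xist and within the 3 with it.

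Both sets of vessel genes were plainly detected: all 34 reached at least 1 scaled FPKM in all 8 libraries, so all were tested. None was called in either direction by limma at an adjusted p under 0.05, where 40 of 11096 genes tested (0.36%) were called. The mean difference on the log2(scaled FPKM + 1) scale, knockout minus control, was below 0 for 19 of 20 endothelial genes and for 14 of 14 mural genes, against 50.5% of all genes tested; without scaling of libraries it was below 0 for 15 and 13. The median log2 difference was -0.17 over the endothelial genes, -0.24 over the mural genes and -0.0021 over all genes. These counts describe genes that share cells and libraries, so they are not independent of each other. In whole muscle, the number of vessel cells and the RNA per vessel cell cannot be told apart, and no cause of these differences was tested.

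At an unadjusted limma p under 0.05, 1 of 20 endothelial genes (Sox17) and 2 of 14 mural genes (Cnn1 and Kcnj8) were lower in knockouts, against 6.07% of all genes. The mural count ranged from 1 to 7 when single libraries were left out, and the endothelial count from 0 to 9. No vessel gene was higher at that level, against 7.03% of all genes. In none of the 34 did the groups separate: no gene had every knockout below every control (3.63% of all genes) or above every control (4.68%). All 4 knockouts lay below the control mean for 4 of 20 endothelial genes (Pecam1, Esam, Erg and Sox17), a share close to the 19.1% of all genes. The same held for 10 of 14 mural genes, 6 of the 7 contractile genes and 4 of the 7 pericyte genes. The 95% intervals of the log2 difference lay within 0.5 of 0 on both sides for 11 endothelial and 7 mural genes, and within 1 for every gene but Rgs5.

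**Figure D1:**
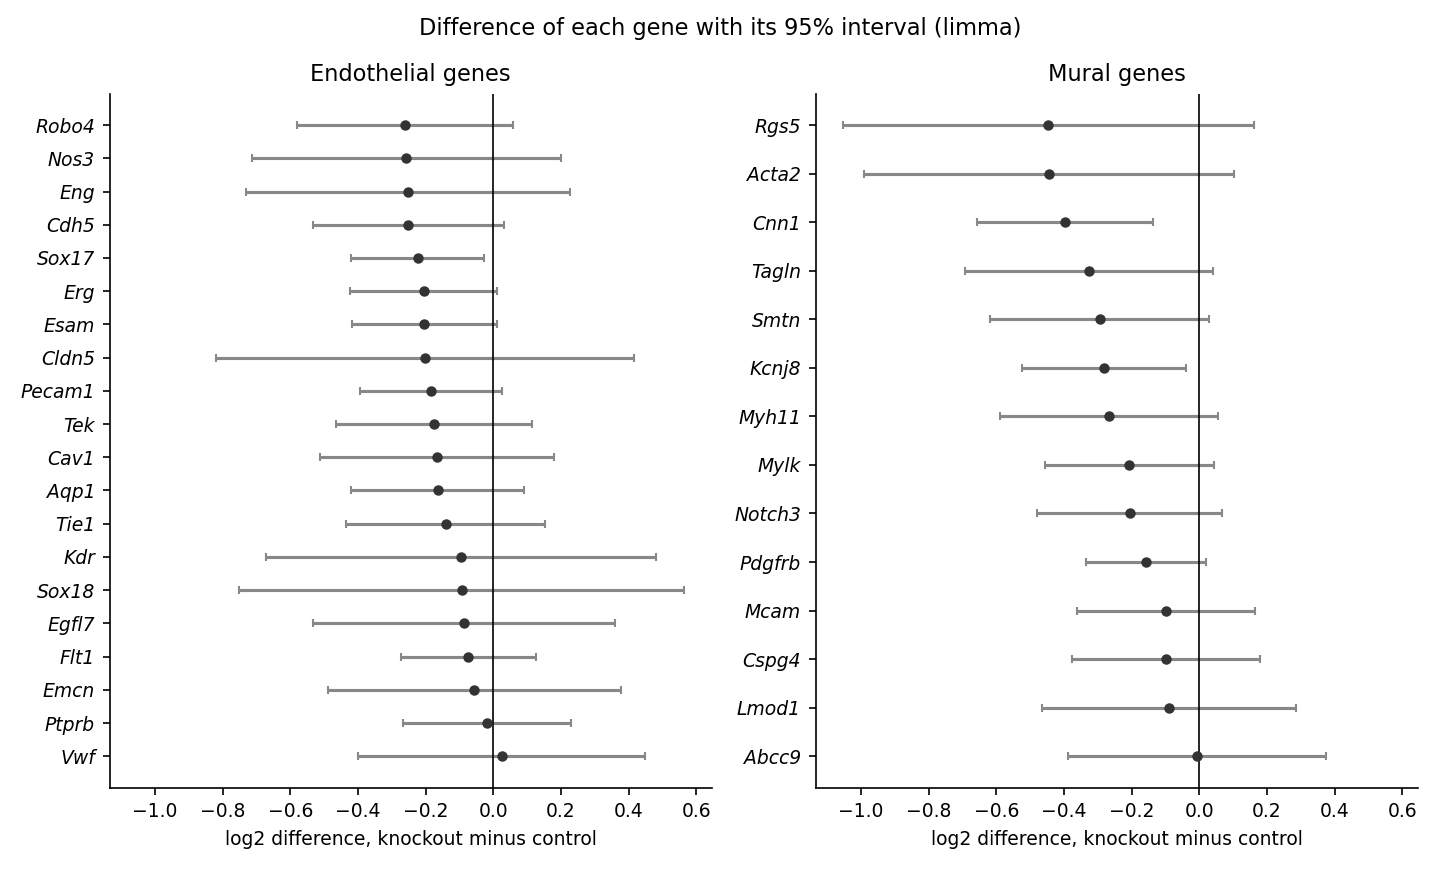
Log2 difference (knockout minus control, log2(scaled FPKM + 1) scale) of each endothelial gene (left) and mural gene (right); points are limma estimates over 4 libraries per group and bars their 95% intervals. Of 34 points, 33 lie below 0, and the intervals of 3 genes, Sox17, Cnn1 and Kcnj8, exclude 0 before adjustment.

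Levels spanned a wide range. Per length, Aqp1 was the most abundant endothelial transcript, with a mean over the 8 libraries of 483 scaled FPKM, followed by Cav1 at 143 and Egfl7 at 77.6. Libraries of Aqp1 and Cav1 did not overlap, nor did those of Cav1 and Egfl7. From Egfl7 down, each gene overlapped its neighbour in the order Pecam1, Cdh5, Esam, Eng, Emcn, Tie1, Sox18, Flt1, Cldn5, Ptprb, Kdr, Robo4, Tek, Nos3, Erg, Sox17 and Vwf, whose mean was 6.70. Among mural genes Rgs5 led at 87.3, then Tagln at 74.5 and Acta2 at 65.0, and these 3 overlapped. The lower mural genes, Mylk, Notch3, Lmod1, Cnn1 and Cspg4, lay between 8.04 and 2.68 and were separated from Pdgfrb above them.

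**Figure D2:**
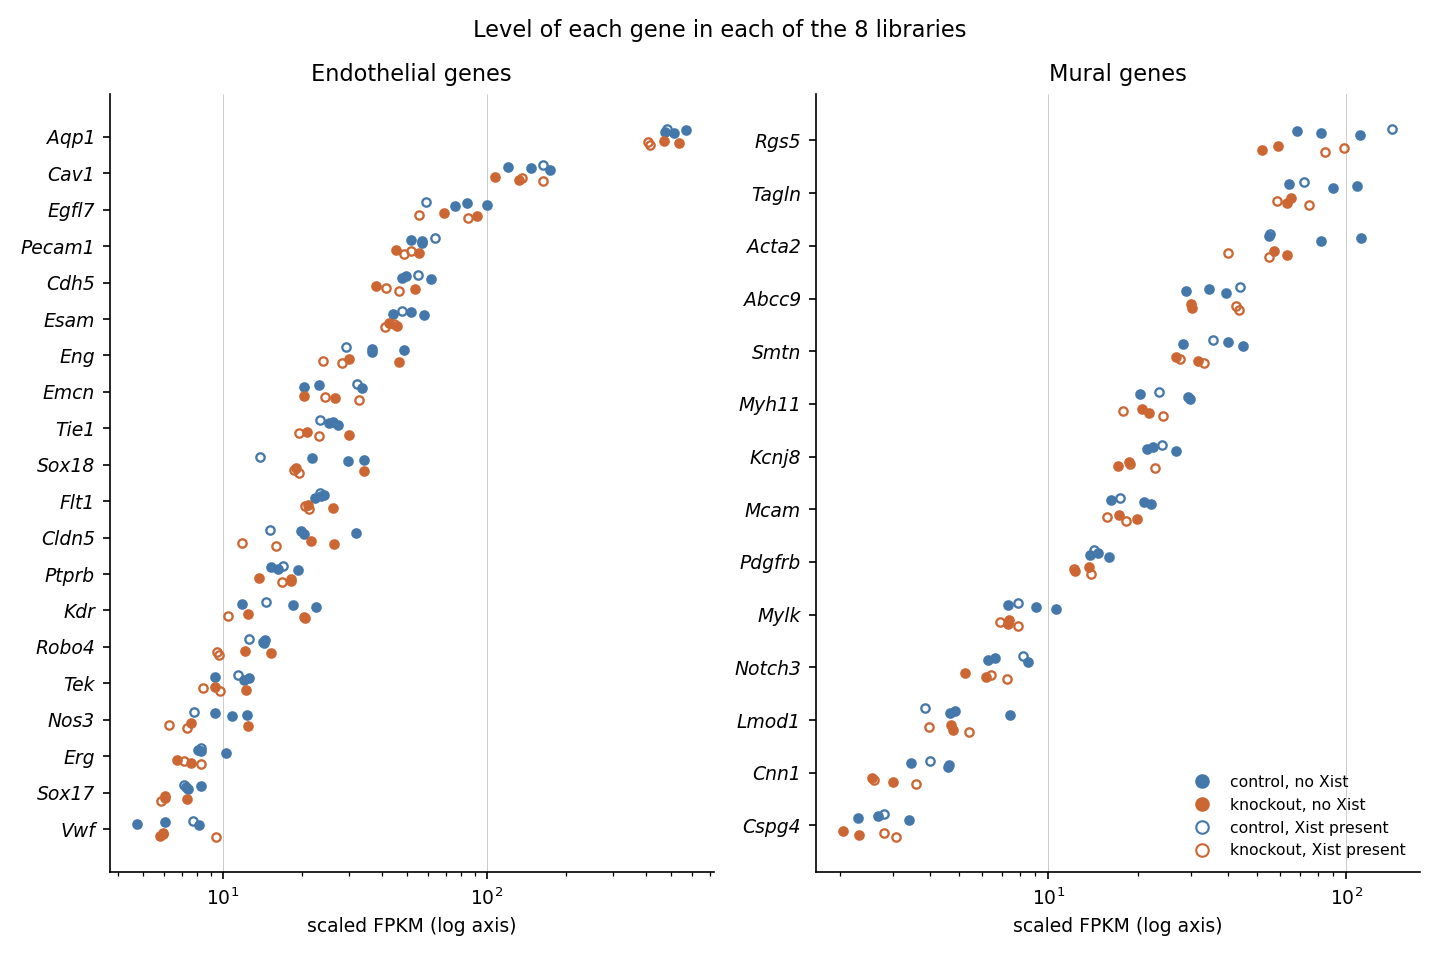
Scaled FPKM on a log axis of each endothelial gene (left) and mural gene (right) in each of the 8 libraries, ordered by mean level; open circles are the 3 libraries with Xist. Control and knockout points overlap for every gene, and Aqp1 and Cav1 stand above the other endothelial genes.

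The endothelial transcription factors are taken first. Erg, an ETS factor that maintains endothelial identity, stood at 8.28, 8.07, 8.30 and 10.2 scaled FPKM in controls 1 to 4 and 6.68, 7.14, 7.55 and 8.27 in knockouts 1 to 4. Control 4 was the highest and knockout 4 reached the level of controls 1 to 3, so the groups overlapped, although all knockouts were below the control mean. Erg had a log2 difference of -0.21 (95% interval -0.42 to 0.012) and an adjusted limma p of 0.412. Sox17, a SoxF factor of arterial endothelium (chromosome 1, 4490928 to 4497426, mm10), stood at 7.14, 8.29, 7.27 and 7.37 scaled FPKM in controls 1 to 4 and 6.03, 6.05, 7.30 and 5.84 in knockouts 1 to 4. Knockout 3 lay among the controls, the other 3 knockouts lay below all of them, and the log2 difference was -0.22 (95% interval -0.42 to -0.027, adjusted limma p 0.317). Sox18, a second SoxF factor, ranged over 13.8 to 34.2 in controls and 18.6 to 34.2 in knockouts, with a log2 difference of -0.094. Its lowest and highest values, control 1 and knockout 3, went against the direction of that mean.

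Promoters of the vessel genes were read for a motif of the ETS type, CAGGAAG, because Erg is a member of that family, and for the CArG box, the site of serum response factor in smooth muscle genes. Windows ran from 250 bases before to 50 bases after each start site in RefSeq on GRCm38.p6, the assembly of mm10, and both strands were searched. Windows were at hand for 12 of 20 endothelial and 11 of 14 mural genes; Pecam1, Cdh5, Esam, Ptprb, Vwf, Nos3, Sox17, Sox18, Myh11, Tagln and Pdgfrb had none in the table. CAGGAAG was found in 4 of the 12 endothelial genes and 0 of the 11 mural genes, against 14.8% of all genes with a window and 13.3% of all windows. Only this spelling was searched, so other ETS-type sites were not counted. Erg and Egfl7 also have windows without it, and genes with more windows had more chances of a match. The CArG box was searched only as CCWWWWWWGG, where W is A or T. It was found in 0 of 12 and 0 of 11, against 1.81% of all genes and 1.63% of all windows. These counts say only that those letters are not in these windows. The Acta2 window holds ccctatatgg and ccttgtttgg, which have a C or G inside and were not counted. The 4 genes have 5 windows with CAGGAAG, 2 of them at separate starts of Egfl7. For each gene 1 window is shown, 5′ to 3′ on the gene's strand, to place the motif, which is in capitals (as CTTCCTG where it lies on the reverse strand). They belong to Robo4 (chr9:37401722-37402021, plus strand), Egfl7 (chr2:26580833-26581132, plus strand), Emcn (chr3:137340828-137341127, plus strand) and Erg itself (chr16:95459299-95459598, minus strand, an internal start).
Robo4: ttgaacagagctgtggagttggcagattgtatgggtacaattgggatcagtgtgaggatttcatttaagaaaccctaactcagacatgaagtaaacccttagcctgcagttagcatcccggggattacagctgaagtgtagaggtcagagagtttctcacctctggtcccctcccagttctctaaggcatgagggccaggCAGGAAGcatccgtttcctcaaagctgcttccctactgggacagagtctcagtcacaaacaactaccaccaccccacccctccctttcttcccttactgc
Egfl7: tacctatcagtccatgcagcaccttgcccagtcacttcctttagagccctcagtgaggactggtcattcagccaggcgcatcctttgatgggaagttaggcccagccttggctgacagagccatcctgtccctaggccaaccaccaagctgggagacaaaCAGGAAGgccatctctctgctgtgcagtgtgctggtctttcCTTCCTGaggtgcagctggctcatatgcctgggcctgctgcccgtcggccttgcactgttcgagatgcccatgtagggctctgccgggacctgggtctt
Emcn: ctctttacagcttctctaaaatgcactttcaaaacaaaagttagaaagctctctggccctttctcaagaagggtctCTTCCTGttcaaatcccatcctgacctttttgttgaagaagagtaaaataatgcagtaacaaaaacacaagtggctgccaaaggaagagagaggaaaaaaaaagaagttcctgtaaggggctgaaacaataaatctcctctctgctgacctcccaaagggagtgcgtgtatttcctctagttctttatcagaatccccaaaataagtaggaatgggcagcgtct
Erg: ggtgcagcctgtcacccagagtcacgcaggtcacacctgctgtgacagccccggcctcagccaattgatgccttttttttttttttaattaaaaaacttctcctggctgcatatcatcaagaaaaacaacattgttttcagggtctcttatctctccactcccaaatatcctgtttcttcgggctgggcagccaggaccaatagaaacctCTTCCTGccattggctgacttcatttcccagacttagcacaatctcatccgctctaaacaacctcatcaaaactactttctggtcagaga
Counted from the start site, the motif begins at -50 in Robo4, at -90 and -49 in the Egfl7 window shown, at -174 in Emcn and at -40 in Erg. In the second Egfl7 window (chr2:26583615-26583914, plus strand) it begins at -81. The log2 differences of these genes were -0.26, -0.087, -0.056 and -0.21, and no gene of the 4 was called. A match is a description of letters, and binding was not measured.

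Genes of junctions and the endothelial surface, 6 in number, were all lower in the knockout mean (Emcn and Ptprb not so without scaling), with a median log2 difference of -0.19. Pecam1, an adhesion molecule of endothelial contacts, stood at 63.6, 51.5, 56.8 and 56.7 scaled FPKM in controls 1 to 4 and 45.2, 51.5, 55.3 and 48.6 in knockouts 1 to 4. Knockout 1 was the lowest, all knockouts were below the control mean, and control 2 lay within the knockout range. The means were 57.2 ± 4.95 in controls and 50.2 ± 4.29 in knockouts (± SD over n = 4 libraries a group), with a log2 difference of -0.18, a 95% interval of -0.39 to 0.027 and an adjusted limma p of 0.447. Cdh5, the cadherin of endothelial adherens junctions, stood at 54.8, 49.5, 47.8 and 61.7 in controls and 38.1, 41.5, 53.6 and 46.4 in knockouts, with a log2 difference of -0.25 (adjusted limma p 0.439). Knockout 3 lay above controls 2 and 3, and the other 3 knockouts lay below every control. Esam, an adhesion molecule of tight junctions, stood at 47.9, 51.7, 44.2 and 58.0 in controls and 42.7, 44.4, 45.9 and 41.0 in knockouts, with a log2 difference of -0.20 (adjusted limma p 0.408). Here control 3 was the library within the knockout range.

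Cldn5, the main endothelial claudin, stood at 15.1, 19.8, 32.0 and 20.4 in controls and 21.6, 11.8, 26.4 and 15.9 in knockouts, with a log2 difference of -0.20. Its 3 lowest libraries were those with Xist, and within the 5 libraries without it the difference was 0.026, on the other side of 0, against -0.12 within the 3 with it. Emcn, a sialomucin of capillary and venous endothelium, ranged over 20.3 to 33.8 in controls and 20.4 to 32.8 in knockouts, and Ptprb, a phosphatase that acts on the receptor encoded by Tek, over 15.2 to 19.2 in controls and 13.7 to 18.2 in knockouts. Their log2 differences of -0.056 and -0.019 changed sign when libraries were not scaled.

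The 6 receptor genes were also all lower in the knockout mean (Flt1 not so without scaling), with log2 differences between -0.26 and -0.074 and a median of -0.16. Kdr and Flt1 encode the VEGF receptors, of which Flt1 also acts as a trap for the ligand. Kdr stood at 14.6, 11.8, 18.4 and 22.6 in controls and 12.4, 10.5, 20.3 and 20.4 in knockouts; it varied widely within both groups, with knockouts 3 and 4 near control 4 and knockouts 1 and 2 near control 2. Flt1 stood at 23.3, 24.2, 23.5 and 22.3 in controls and 21.1, 20.5, 26.0 and 21.2 in knockouts, with knockout 3 above every control and the other 3 knockouts below every control. The log2 differences were -0.094 (95% interval -0.67 to 0.48) for Kdr and -0.074 (-0.27 to 0.13) for Flt1. Tek, the angiopoietin receptor, ranged over 9.30 to 12.6 in controls and 8.42 to 12.3 in knockouts and Tie1, its orphan partner, over 23.4 to 27.4 in controls and 19.4 to 29.9 in knockouts, with log2 differences of -0.18 and -0.14.

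Eng, a co-receptor for ligands of the bone morphogenetic protein (BMP) and transforming growth factor beta (TGF-beta) family, stood at 29.3, 36.9, 48.6 and 36.8 in controls and 30.1, 23.9, 46.4 and 28.2 in knockouts. Control 3 and knockout 3 were its highest libraries and the 3 libraries with Xist its lowest. Its log2 difference of -0.25 was -0.11 in the libraries without Xist and -0.17 in those with it. Robo4, which stabilises endothelial junctions, stood at 12.5, 14.5, 14.2 and 14.4 in controls and 12.1, 9.48, 15.2 and 9.65 in knockouts, with a log2 difference of -0.26 (adjusted limma p 0.480). Knockout 3 was its highest library and knockouts 2 and 4, both with Xist, its lowest. The difference was -0.074 in the libraries without Xist and -0.36 in those with it.

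Enzymes, channels and caveolae were represented by 3 genes, each lower in the knockout mean. Nos3, the endothelial nitric oxide synthase, stood at 7.77, 9.30, 12.3 and 10.8 in controls and 7.60, 6.26, 12.5 and 7.30 in knockouts, with knockout 3 as its highest library and a log2 difference of -0.26 (95% interval -0.71 to 0.20). Aqp1, the water channel of endothelium and red cells, stood at 483, 571, 475 and 511 in controls and 470.1, 407, 533 and 415 in knockouts. Knockout 3 lay above 3 of the controls, knockouts 1, 2 and 4 lay below every control, and the log2 difference was -0.16. Cav1, the coat protein of caveolae, ranged over 120.0 to 174 in controls and 108 to 163 in knockouts, with a log2 difference of -0.17.

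Secreted proteins were represented by 2 genes. Vwf, which binds platelets and is stored by endothelium, was the exception in direction, at 7.69, 6.01, 4.73 and 8.10 in controls and 5.92, 5.92, 5.803 and 9.43 in knockouts and a log2 difference of 0.025 (95% interval -0.40 to 0.45). Knockout 4 was its highest library, and the other 3 knockouts lay between 5.803 and 5.92, below control 2. Egfl7, which endothelium secretes into its matrix, ranged over 58.9 to 101 in controls and 55.5 to 92.0 in knockouts, with a log2 difference of -0.087.

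Contractile genes of smooth muscle gave a median log2 difference of -0.29 over 7 genes, all lower in the knockout mean. Cnn1, encoding calponin, an actin-binding protein of differentiated smooth muscle (chromosome 9, 22099221 to 22109221, mm10), stood at 3.99, 3.47, 4.65 and 4.62 scaled FPKM in controls 1 to 4 and 2.57, 2.59, 3.01 and 3.59 in knockouts 1 to 4. Knockouts 1, 2 and 3 lay below every control and knockout 4 lay above control 2 alone. The mean scaled FPKM were 4.18 ± 0.564 in controls and 2.94 ± 0.481 in knockouts (± SD over n = 4 libraries a group), so knockouts held 70.3% of the control level. On the log2 scale the difference was -0.40 with a standard error of 0.11, a 95% interval of -0.66 to -0.14 and an adjusted limma p of 0.190, the smallest among the 34 genes.

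Acta2, smooth muscle actin, stood at 55.2, 54.8, 112 and 82.4 scaled FPKM in controls 1 to 4 and 57.2, 40.1, 63.3 and 55.0 in knockouts 1 to 4. Controls 3 and 4 were high, controls 1 and 2 lay among the knockouts, and knockout 2 was the lowest. Its log2 difference of -0.44 had a wide 95% interval of -0.99 to 0.10 and an adjusted limma p of 0.483. Tagln, encoding transgelin, an actin-binding protein, stood at 71.8, 64.1, 108 and 90.2 in controls and 64.9, 58.6, 63.2 and 74.9 in knockouts, with the same pair of controls high and a log2 difference of -0.33 (adjusted limma p 0.440). Myh11, the smooth muscle myosin heavy chain, stood at 23.4, 20.3, 29.4 and 29.9 in controls and 20.6, 17.8, 21.7 and 24.3 in knockouts, again with controls 3 and 4 highest and a log2 difference of -0.27 (adjusted limma p 0.475).

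Smtn, encoding smoothelin, a protein of contractile smooth muscle, stood at 35.5, 40.2, 28.4 and 45.0 in controls and 26.8, 27.7, 31.9 and 33.3 in knockouts. Control 3 was low here and the other 3 controls lay above every knockout, with a log2 difference of -0.29 (adjusted limma p 0.428). Mylk, the kinase that activates smooth muscle myosin, ranged over 7.30 to 10.6 in controls and 6.88 to 7.88 in knockouts, with a log2 difference of -0.21. Lmod1, which nucleates actin filaments in smooth muscle, ranged over 3.84 to 7.45 in controls and 3.98 to 5.43 in knockouts, with a log2 difference of -0.090 that was 0.069 without control 4.

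Pericyte genes gave a median log2 difference of -0.16 over 7 genes, all lower in the knockout mean (Abcc9 not so without scaling or after quantile normalization). Kcnj8 and Abcc9 encode the pore and the regulatory subunit of the ATP-sensitive potassium channel of pericytes and smooth muscle. Kcnj8 (chromosome 6, 142564837 to 142571614, mm10) stood at 24.1, 22.5, 21.4 and 26.8 scaled FPKM in controls 1 to 4 and 18.6, 18.8, 17.1 and 22.8 in knockouts 1 to 4. Knockouts 1, 2 and 3 lay below every control and knockout 4 lay above controls 2 and 3. The log2 difference was -0.28 (95% interval -0.52 to -0.040), with an adjusted limma p of 0.308. Abcc9, which muscle fibres also express, stood at 43.9, 34.5, 29.0 and 39.5 in controls and 30.1, 42.6, 30.4 and 43.5 in knockouts, with a log2 difference of -0.0071 (95% interval -0.39 to 0.37). Its 3 libraries with Xist were its 3 highest, which 11.4% of all genes showed, while Cldn5 and Eng had them lowest, which 9.38% showed.

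Rgs5, a regulator of G protein signalling and a pericyte marker, had the lowest estimate of the 34 genes. It stood at 143, 68.2, 82.4 and 111 scaled FPKM in controls 1 to 4 and 59.0, 98.5, 51.9 and 84.6 in knockouts 1 to 4. Control 1 was high, knockouts 1 and 3 were below every control, and knockouts 2 and 4 lay within the control range. The log2 difference was -0.45 (95% interval -1.05 to 0.16, adjusted limma p 0.516). It was -0.62 in the libraries without Xist (adjusted limma p 0.334) and -0.64 in those with it. With Xist as a covariate it was -0.63, with an adjusted limma p of 0.0831. Pdgfrb, the receptor that recruits pericytes to vessels, stood at 14.2, 14.6, 13.7 and 15.9 in controls and 13.7, 12.2, 12.3 and 13.9 in knockouts, with a log2 difference of -0.16 (adjusted limma p 0.440). Notch3, the mural Notch receptor, ranged over 6.26 to 8.52 in controls and 5.27 to 7.24 in knockouts, with a log2 difference of -0.21. Cspg4, the NG2 proteoglycan, and Mcam, an adhesion molecule that endothelium also carries, each had a log2 difference of -0.098.

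Single libraries differed in level across the vessel genes. Knockout 2 was the lowest library for 10 of 20 endothelial genes and knockout 1 for 5, while knockout 3 was the lowest for 0 and the highest for 5. Averaged over the 20 endothelial genes, the log2 deviation from the mean of all libraries was -0.03, 0.0023, 0.13 and 0.20 in controls 1 to 4 and -0.19, -0.25, 0.18 and -0.05 in knockouts 1 to 4. Knockout 3 was thus at the level of the 2 highest controls. Over the 14 mural genes it was 0.09, -0.06, 0.11 and 0.33 in controls and -0.20, -0.17, -0.15 and 0.05 in knockouts. Knockout 3 was low in this list, and a control was the highest library for 14 of 14 mural genes, control 4 for 9 of them. Lowest and highest libraries were not counted over all genes, so these counts are not read as particular to vessel genes. Without knockout 3 the endothelial median log2 difference was -0.24, with 9 of 20 genes at an unadjusted limma p under 0.05 and 0 called; of all genes 1518 (13.7%) were at that level and 27 were called. Without control 2, 7 of 14 mural genes were at an unadjusted limma p under 0.05 and 0 called, against 1226 of all genes (11.0%) at that level and 12 called.

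Within the 5 libraries without Xist, 18 of 20 endothelial genes were lower in the knockout mean, with a median log2 difference of -0.11. Within the 3 libraries with it, 1 control and 2 knockouts, 16 of 20 were lower, with a median of -0.16. For the mural genes the counts were 14 of 14 with a median of -0.28 and 12 of 14 with a median of -0.14. With Xist as a covariate the medians were -0.13 and -0.25, and 0 of 34 genes were called, against 2.01% of all genes. Leaving out knockouts 2 and 4 together left the endothelial median at -0.05, with 15 of 20 genes lower, and the mural median at -0.26, with 14 of 14 lower. Without scaling the medians were -0.09 and -0.16, but the median of all genes then lay at 0.071.

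Other cell types also varied between libraries. The 12 fibro-adipogenic markers, all tested, summed to 529.8 to 1005 scaled FPKM in controls and 428.0 to 788 in knockouts, and their defining markers Pdgfra and Dcn ranged over 2.11 to 3.70 in controls and 1.5 to 3.46 in knockouts, and over 118 to 279 in controls and 123 to 234 in knockouts. None of the 12 was called, against 0.36% of all genes, and 11 were lower in the knockout mean, against 50.5%. At an unadjusted limma p under 0.05, 3 (Col3a1, Dpt and Smoc2) were lower, against 6.07% of all genes. The largest differences, chosen after their values were seen, were -0.72 for Cxcl14, -0.64 for Col3a1, -0.58 for Smoc2 and -0.52 for Dpt on the log2 scale. In the same order these were -0.74, -0.97, -0.80 and -0.84 in the libraries without Xist and -0.10, -0.12, 0.054 and 0.096 in those with it. Pdgfra and Dcn were at -0.34 and -0.38 in the libraries without Xist and at 0.32 and 0.51 in those with it. Averaged over genes, knockout minus control was -0.31 for this list, beyond the -0.15 of the endothelial and the -0.24 of the mural genes. The mean log2 deviation of this list was 0.34 and 0.54 in controls 3 and 4, where Acta2, Tagln and Myh11 were high, and -0.66 in knockout 3. The 6 Schwann markers summed to 83.6 to 129.9 in controls and 84.9 to 103 in knockouts, and the 7 macrophage markers to 38.9 to 68.9 and 33.1 to 61.9. Of 6 red cell markers, 4 were tested, and the list summed to 348 to 749 in controls and 375 to 1005 in knockouts. Hba-a2 was near 0 beside Hba-a1 at 134 to 241 in controls and 138 to 319 in knockouts, and as near-identical copies they are uncertain. Hbb-bs, not tested, was at 0.00404 to 0.00554 in controls and 10.6, 5.97, 6.82 and 0.00664 in knockouts 1 to 4. The red cell list, averaged over genes with Hbb-bs included, gave a knockout minus control of 0.47. The 4 tested genes were at 0.028 (Hba-a1), 0.46 (Hbb-bt), -0.022 (Hbb-b1) and 0.00064 (Alas2). Of 5 lymphatic markers, 3 were tested, and the list summed to 6.07 to 9.08 and 3.29 to 8.03, with Prox1 at most 0.313. The 6 adipocyte markers summed to 9.66 to 23.0 and 4.33 to 24.4, the 5 satellite cell markers to 8.83 to 11.1 and 5.46 to 10.4, and the 6 tendon markers to 34.2 to 84.9 and 47.9 to 119.6. The 5 lymphocyte markers summed to 1.45 to 2.21 and 2.86 to 9.0, with Cd3e at 0.961 to 1.45 in controls and 2.23 to 8.32 in knockouts and Cd3g at most 0.165. The fibre markers Acta1 and Ckm were listed at 0 in several libraries, so only Mb and Pvalb of 6 were usable, at 26672 to 31805 in controls and 19775 to 26368 in knockouts, a mean log2 difference of -0.35. The part of these cell types in the vessel gene differences was not tested.

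**Figure D3:**
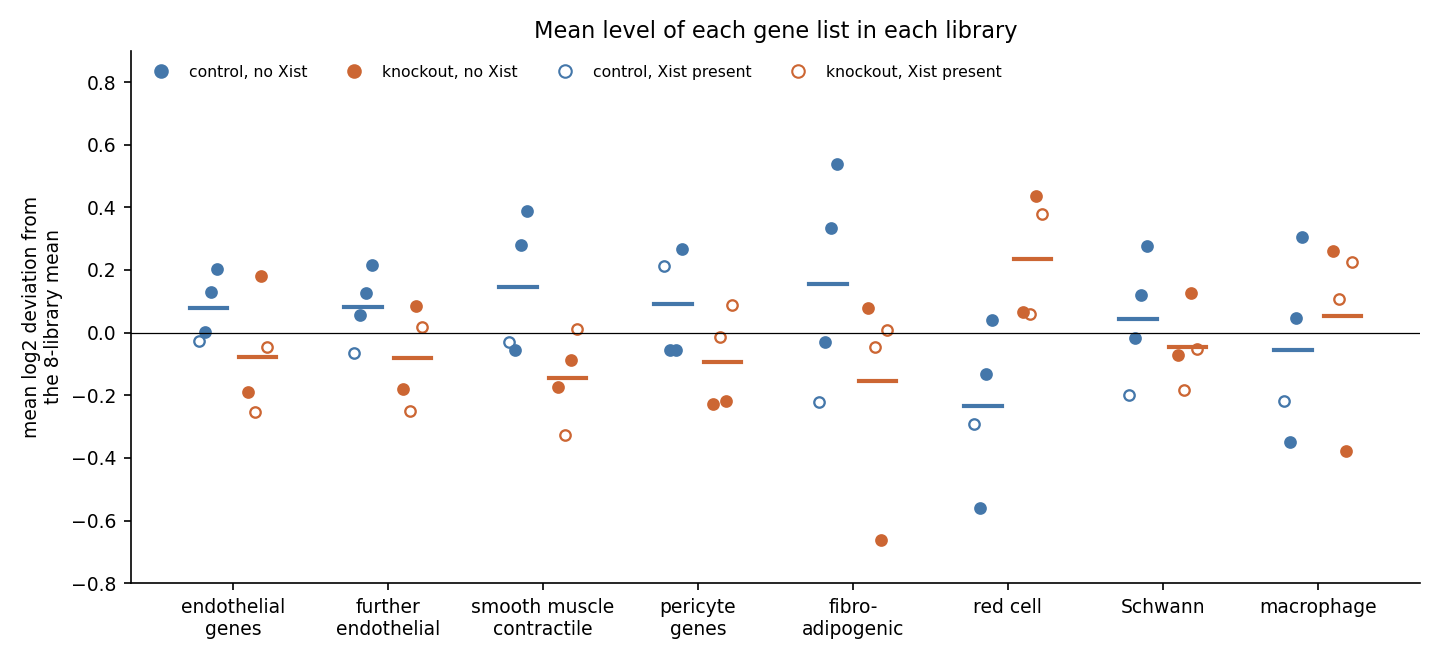
Mean log2 deviation from the mean of the 8 libraries for each gene list in each library; short lines are group means over 4 libraries and open circles the 3 libraries with Xist. Knockout 3 lies at 0.18 for the endothelial genes and at -0.66 for the fibro-adipogenic markers.

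A further 21 endothelial markers, of which Bmx was below the filter, gave 0 called genes, against 0.36% of all genes. In the knockout mean 19 of 20 were lower, against 50.5% of all genes, with a median log2 difference of -0.10. At an unadjusted limma p under 0.05, 4 were lower and 0 higher, against 6.07% and 7.03% of all genes. Within the libraries without Xist 18 of 20 were lower, with a median of -0.15. Within the 3 libraries with it 11 of 20 were lower, with a median of -0.045. Rgcc, a cell cycle regulator abundant in capillary endothelium, stood at 101, 131, 122 and 82.9 scaled FPKM in controls 1 to 4 and 51.0, 83.0, 57.1 and 44.8 in knockouts 1 to 4. Knockout 2 lay at the level of control 4, and the other 3 knockouts lay below every control. Its log2 difference was -0.89 (95% interval -1.36 to -0.43) with an adjusted limma p of 0.118. Icam2, an endothelial adhesion molecule, stood at 18.5, 16.2, 19.98 and 22.0 in controls and 15.1, 12.2, 15.1 and 14.7 in knockouts without overlap, with a log2 difference of -0.40 (adjusted limma p 0.175). It was the 1 gene of the 20 tested without overlap, where 3.63% of all genes had every knockout below every control. Gpihbp1, which carries lipoprotein lipase to the capillary lumen, stood at 149.8, 162, 165 and 134 in controls and 137, 133, 134 and 117 in knockouts, with a log2 difference of -0.23 (adjusted limma p 0.353) and control 4 within the knockout range. Gja5, a connexin of arterial endothelium, was the 1 gene of this list with a mean above 0, at a log2 difference of 0.069.

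Of 51 genes of vascular signalling, 48 were tested, Apln, Pde5a and Myocd being below the filter. None was called, against 0.36% of all genes. In the knockout mean 37 were lower and 11 higher, where 50.5% of all genes were lower, and the median log2 difference was -0.12. At an unadjusted limma p under 0.05, 6 (12.5%) were lower and 1 was higher, against 6.07% and 7.03% of all genes. Of the VEGF ligands and co-receptors 7 of 8 were lower in the mean, of the BMP and TGF-beta genes 6 of 9, of the Notch genes 7 of 9, of the angiopoietin and PDGF genes 3 of 5, and of the transcription factors 9 of 9. The S1P, apelin and endothelin genes gave 3 of 5 and the nitric oxide and cGMP genes 2 of 3.

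Among ligands, Figf, which encodes VEGF-D, stood at 3.06, 3.76, 3.50 and 3.34 scaled FPKM in controls 1 to 4 and 2.11, 2.11, 2.14 and 2.87 in knockouts 1 to 4. Its groups did not overlap, though knockout 4 came near control 1, and the log2 difference was -0.42 (95% interval -0.64 to -0.20, adjusted limma p 0.118). Pgf, a ligand of the receptor encoded by Flt1, stood at 2.40, 2.47, 1.91 and 2.36 in controls and 1.75, 1.69, 1.32 and 1.96 in knockouts, with a log2 difference of -0.30 (adjusted limma p 0.251) and control 3 within the knockout range. Vegfa, the main ligand of both VEGF receptors, stood at 101, 149, 169 and 115 in controls and 179, 99.4, 224 and 110.4 in knockouts. Knockout 3 was the highest and knockout 2 the lowest library, and the log2 difference of 0.15 had a 95% interval of -0.48 to 0.77. Edn1, the vasoconstrictor endothelin, ranged over 1.40 to 2.56 in controls and 1.70 to 2.69 in knockouts, with a log2 difference of 0.16. Angpt1, the mural ligand of the receptor encoded by Tek, stood at 8.43, 2.13, 1.27 and 4.10 in controls and 1.80, 6.72, 1.85 and 7.51 in knockouts: its 3 libraries with Xist were its highest in both groups, and it was chosen after its values were seen.

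Klf2, a transcription factor that blood flow induces in endothelium, stood at 40.4, 27.5, 40.2 and 31.0 scaled FPKM in controls 1 to 4 and 22.5, 18.4, 25.7 and 23.9 in knockouts 1 to 4. Every knockout was below every control, the log2 difference was -0.59 (95% interval -0.93 to -0.25) and the adjusted limma p was 0.148. Tgfbr1, the type I TGF-beta receptor of many cell types, was the only gene of the 48 with every knockout above every control, at 6.54, 4.78, 6.26 and 5.43 in controls and 7.81, 9.24, 6.67 and 7.03 in knockouts, a log2 difference of 0.36 and an adjusted limma p of 0.240. Jag2, a Notch ligand, also had every knockout below every control, at 11.1, 11.4, 12.6 and 12.0 in controls and 9.73, 9.63, 10.4 and 10.7 in knockouts and a log2 difference of -0.20 (adjusted limma p 0.291), and was chosen after its values were seen. With Figf, Klf2 and Jag2 lower and Tgfbr1 higher, 4 of 48 genes did not overlap, where all genes gave 3.63% and 4.68% in the 2 directions.

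**Figure D4:**
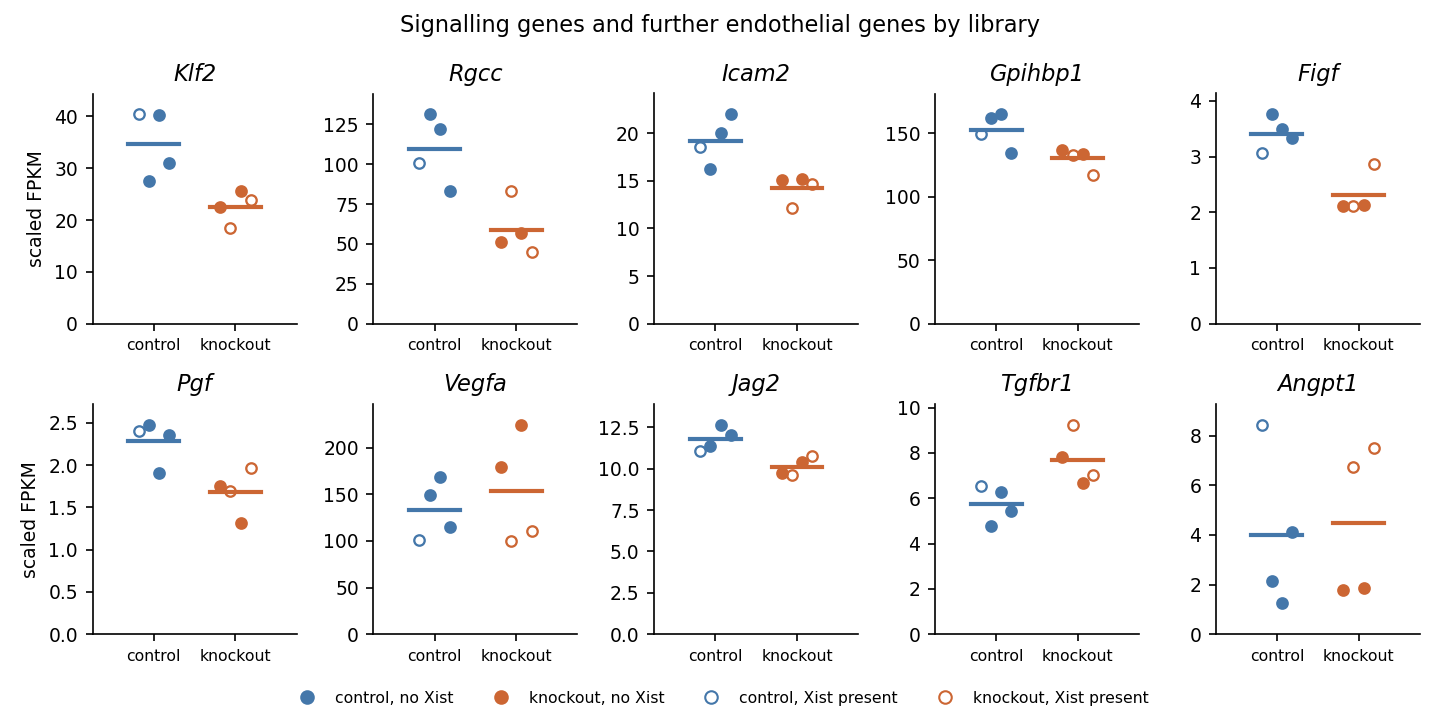
Scaled FPKM of 10 signalling and further endothelial genes in each library, each panel with its own axis from 0; lines are group means over 4 libraries and open circles the 3 libraries with Xist. Klf2, Icam2, Figf and Jag2 have all knockouts below all controls, and Tgfbr1 has all above.

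Some vessel genes share exon sequence with a listed gene on the opposite strand, and the labels do not say that strand was kept. These were Eng with Fpgs (61 bases), Nos3 with Atg9b (294 bases), Tagln with Pcsk7 (94 bases), Mylk with E130310I04Rik (154 bases) and Abcc9 with 5330439B14Rik (158 bases) in GENCODE M21, so the values of these 5 genes are uncertain.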

How the data were processed

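RNA of the tibialis anterior of 8 mice, separate animals per the labels, was sequenced by the authors. The deposited values are FPKM, 1 Cufflinks-type gene table per library per the file headers. STAR, Cufflinks and mm10 are named in the submitters' processing notes, without versions, and no annotation is named in them. Read counts are not in these tables, so no count model was used and precision per gene is unknown. Libraries were scaled by median-of-ratios factors taken from the 10180 genes at 1 FPKM or more in each of them, and values analysed as log2(scaled FPKM + 1), which shrinks differences of low genes. Left out were 23 genes, none a vessel gene, whose status was not OK in some library. The 11096 genes that reached 1 scaled FPKM in 4 or more libraries were fitted with limma 3.58.1 in R 4.3.3 (eBayes with trend, 2-sided, Benjamini-Hochberg, threshold 0.05), after the code was tested on simulated data. Carm1 was compared by exact permutation. The genes and lists were chosen with earlier results of these data known. Named are all 34 genes and, per further list, the 3 with the smallest p in each direction (only 1 was higher among the further endothelial markers), and for other cell types the list sums and defining markers. Alternatives were other pseudocounts, filters, scalings, variance models, Xist terms, a replicate block and leaving out libraries. Other steps used Python 3.11.15 with pandas 2.3.3, numpy 2.4.6, matplotlib 3.10.9 and scipy 1.17.1.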

Additional observations from a re-analysis of the deposited data

Results flagged for a closer look

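In 6 of 70 groups of 4 libraries, 1 library lay far from the other 3 for a gene, where chance gives about 1 in 20 groups, or 3.5. Knockout 3 was the high library for Flt1 (26.0 scaled FPKM, the other knockouts 20.5 to 21.2), for Sox17 (7.30) and for Sox18 (34.2). Knockout 4 was high for Vwf (9.43), control 4 for Erg (10.2), and control 1 was low for Robo4 (12.5).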

How the results depend on the processing

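No vessel gene and no signalling gene was called under any of 20 alternatives. The smallest adjusted limma p of a vessel gene over all of them was 0.0831, for Rgs5 with Xist as a covariate. The median log2 difference stayed below 0 under all 20, between -0.24 and -0.053 for the endothelial genes and between -0.30 and -0.16 for the mural genes. The sign was the same in 636 of 677 values, and 23 of 34 genes kept it throughout. Without scaling, Emcn was at 0.029, Ptprb at 0.065, Flt1 at 0.011, Egfl7 at 0.0010 and Abcc9 at 0.079. With array weights, Emcn was at 0.021, Ptprb at 0.0049 and Abcc9 at 0.087. Abcc9 was at 0.027 after quantile normalization and at 0.033 after removal of a trend on mean level. With Xist as covariate, Vwf was at -0.050, Egfl7 at 0.0015 and Sox18 at 0.068. In the libraries without Xist, Cldn5 was at 0.026, Flt1 at 0.0073 and Vwf at -0.059. Without knockouts 2 and 4, Cldn5 was at 0.18, Flt1 at 0.0081, Eng at 0.0025, Vwf at -0.13, Egfl7 at 0.018 and Sox18 at 0.11. Leaving out 1 library at a time gave -0.18 to 0.052 for Emcn, -0.066 to 0.066 for Ptprb, -0.24 to 0.073 for Kdr, -0.13 to 0.12 for Vwf, -0.22 to 0.049 for Egfl7, -0.34 to 0.079 for Sox18, -0.20 to 0.069 for Lmod1 and -0.11 to 0.082 for Abcc9. The cause of these changes was not tested. Carm1 lay between -1.02 and -0.84 when 1 library was left out, with an exact permutation p of 0.0571, the smallest that the remaining libraries allow.

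The count over all genes, 40, was 8 without a filter, 15 at a mean of at least 5 scaled FPKM, 223 with Xist as covariate, 3 in the libraries without Xist, 13 without knockouts 2 and 4, 103 with array weights and 2 to 27 with 1 library left out. With the replicate number as a block it was 0, and 0 of 34 vessel genes were called. At an unadjusted limma p under 0.05 there were 4 mural genes with the block and 4 with Xist as covariate, against 2 without either. Of all genes, 11.8% were at that level with the block, 18.6% with Xist as covariate and 13.1% without either. Deviations of same-numbered libraries correlated at -0.432, -0.194, 0.349 and 0.194, and only number 3 was matched best with its own number from both sides, so the numbers were not read as a pairing. Read depth is unknown, so no counting error could be given for any value.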
